A study of Homo sapiens with 6 samples.

Results

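The 10 genes described here are the core of the Hippo pathway's transcriptional output: the coactivators YAP1 and WWTR1 (which encodes TAZ), their DNA-binding partners TEAD1, TEAD2, TEAD3 and TEAD4, the kinases LATS1 and LATS2, the competitor VGLL4 and the scaffold AMOTL2. They were chosen by name, and were found by summing the transcripts annotated to each symbol. All 10 passed the filter on low counts, among 15204 genes tested of 35580 in the tables. The study set 3 control libraries against 3 libraries labelled siDDX5, in which the RNA helicase DDX5 had been knocked down. All 6 came from Rh30, an established alveolar rhabdomyosarcoma line with the fusion gene PAX3-FOXO1, so the fusion is shared by both groups. The titles number the libraries 1 to 3 in each group, and the design text calls them biological replicates of mRNA profiles. The reagent's sequence, its dose, the control reagent and the time of harvest are not given in the sources used here.

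In the Hippo pathway, the MST kinases (STK3, STK4) with SAV1 activate LATS1 and LATS2, which act with MOB1 and phosphorylate YAP and TAZ. Phosphorylated YAP and TAZ are held in the cytoplasm or degraded. Unphosphorylated, they enter the nucleus and bind TEAD proteins, since neither coactivator binds DNA itself. VGLL4 binds the same TEAD proteins in place of YAP, and angiomotins such as AMOTL2 bind YAP and keep it out of the nucleus. LATS2 and AMOTL2 are also TEAD target genes, and so close a negative feedback. In muscle, TEAD proteins bind the MCAT element of muscle gene promoters, and YAP activity is linked to the growth of myoblasts and of rhabdomyosarcoma cells.

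The libraries held 18202402 to 26156858 estimated counts, with the siDDX5 libraries all shallower than the controls. A count of 3 corresponded to 0.115 to 0.165 CPM (counts scaled by library size), far below every level of a member gene. DDX5 itself had 1141 to 1438 CPM in the controls and 397 to 551 CPM in the siDDX5 libraries, a 2.71-fold lower level (edgeR adjusted p 0.0115). DDX5 lost this call in 6 of 18 alternatives, with adjusted p values of 0.0582 to 0.0937 and log2 fold changes of -1.54 to -1.37. Of 8 markers of the skeletal muscle lineage and of this tumour, 7 had a mean of at least 10 CPM. Their summed level was 1177 to 1613 CPM in the controls and 1198 to 1341 CPM in siDDX5 libraries, and none was called. The 5 epithelial markers summed to 3.20 to 4.69 CPM over both groups and the 4 blood markers to 1.30 to 3.07 CPM. The 3 endothelial markers summed to 11.2 to 15.8 CPM. The 5 fibroblast markers summed to 87.9 to 110.4 CPM in the controls and 109.4 to 125.2 CPM in siDDX5 libraries. Of these, THY1 alone had 75.9 ± 9.22 CPM in the controls and 93.5 ± 8.61 CPM in the siDDX5 group (SD, n = 3 each), COL1A1 had 17.9 ± 3.18 and 19.5 ± 1.01 CPM, and COL1A2, PDGFRA and DCN had means of 0.146 to 1.19 CPM. The part of these markers in the results below was not tested. In bulk libraries, fewer cells that express a gene and less RNA per cell cannot be told apart.

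YAP1, TEAD1 and TEAD2 are spliced with short coding inserts. The sequences that tell their transcripts apart are shown because the transcript results turn on them. YAP1 has a 12-base extension of an exon after the second WW domain (chr11:102206075-102206086 of GRCh38, plus strand) and, further on, a 48-base exon (chr11:102209517-102209564). TEAD1, TEAD2 and TEAD3 each have an exon of exactly 12 bases just after the region that encodes the DNA-binding TEA domain, at chr11:12878889-12878900 (plus strand), chr19:49355959-49355970 (minus strand) and chr6:35479305-35479316 (minus strand). The sequences below were read from the GENCODE release 29 transcripts, with the insert in capitals and 9 bases on either side in lower case. The first and the fourth are each followed by the same junction without the insert.
YAP1-209, with the 12-base extension: cttcggcagGTGAGGCCACAGgagttagcc
YAP1-201, without it: cttcggcaggcaatgcgg
TEAD1-201, 12-base exon: aagctaaagGTAACAAGCATGgatcagact
TEAD2-208, 12-base exon: aagttgaagGCTCTGAACGTGgaccaggtt
TEAD2-201, without it: aagttgaaggaccaggtt
TEAD3-201, 12-base exon: ggcatcaagGCCATGAACCTGgaccaggtc
Base by base, the 12-base exons of TEAD2 and TEAD3 were identical at 9 of 12 positions, those of TEAD1 and TEAD3 at 6 and those of TEAD1 and TEAD2 at 5. In YAP1-201 the exon that follows the junction is the 48-base exon, so its first 9 bases stand where YAP1-209 has the extension. The 12-base exon of TEAD3 is in all 3 of its transcripts (TEAD3-201, TEAD3-202 and TEAD3-203), so it tells none of them apart and is shown for comparison only. TEAD4 had no 12-base exon among its annotated transcripts.

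The promoters of the members were searched for the core TEAD word GGAATG on both strands (CATTCC on the other), in RefSeq windows of GRCh38.p14 from 250 bases before to 50 bases after each start. Windows were at hand for 8 of the 10 genes, TEAD1 and TEAD4 having no entry. Of their 16 windows, 3 held the word (18.8%), against 14% of all 35116 windows, so the share among the members was close to that of promoters in general. The word is in capitals in the 3 windows, which belong to AMOTL2 (chr3:134374499-134374528, minus strand), YAP1 (chr11:102110273-102110302, plus strand) and LATS2 (chr13:21061560-21061589, minus strand).
AMOTL2: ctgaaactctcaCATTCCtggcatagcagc
YAP1: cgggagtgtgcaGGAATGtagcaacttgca
LATS2: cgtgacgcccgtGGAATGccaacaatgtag
A match to these letters is a description of the sequence and not a binding site.

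The comparison asked whether the level of any member differed between siDDX5 and control cells. TEAD1 had the largest difference of the 10 genes, a 1.41-fold lower level, and in TEAD1 and LATS2 all 3 siDDX5 libraries lay below all controls. Groups without overlap in either direction were thus 20% of the members, close to the 18% of all genes tested. In edgeR TEAD1 was called only when the replicate number entered the fit as a block. The coactivators, the other TEAD genes and the regulators differed by no more than 0.26 on the log2 scale, and none of these 9 was called in either fit. By the edgeR quasi-likelihood test, Benjamini-Hochberg adjusted over all genes, 0 of the 10 members had an adjusted p under 0.05, where 0.171% of all genes tested were called. At an unadjusted p under 0.05 there was 1 member, TEAD1, or 10% of the members against 11.3% of all genes. With the replicate block, 1 member was called, against 2.48% of all genes, and the 1.4% of genes called lower are the nearest background for TEAD1. At an unadjusted p under 0.05 the block gave 3 members, TEAD1, WWTR1 and LATS2, against 20.4% of all genes. The members' median log2 fold change was 0.04, beside -0.0017 over all genes tested.

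**Figure D1:**
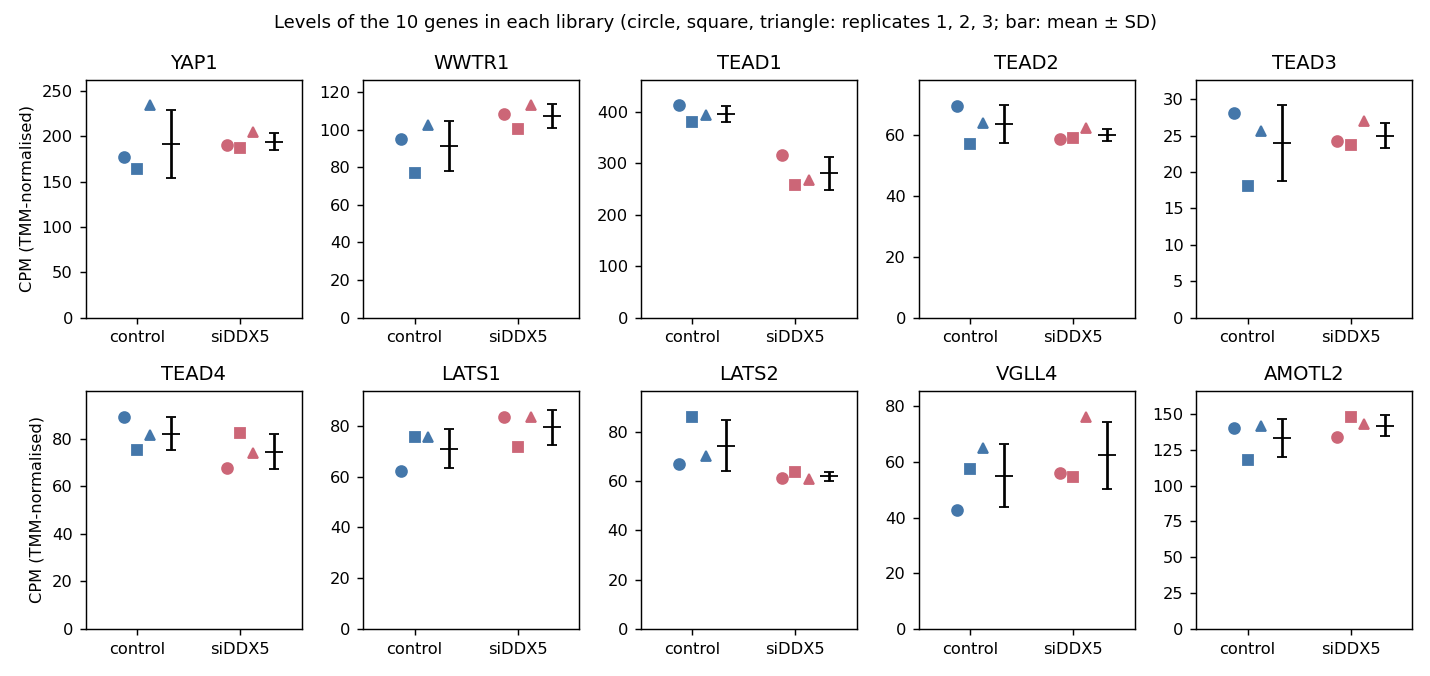
TMM-normalised CPM of each of the 10 genes (vertical axes, from 0) in the 3 control and 3 siDDX5 libraries, with the mean ± SD of each group as a black bar. The siDDX5 libraries lie below all control libraries in TEAD1 (257 to 316 against 380 to 413 CPM) and in LATS2 (60.7 to 63.9 against 66.9 to 86.2 CPM), and the groups overlap in the other 8 genes.

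YAP1 (ENSG00000137693.13, chr11:102110461-102233423, plus strand), the coactivator that gives the pathway its main readout, had 177, 164 and 234 CPM in the controls, in the order of their numbers. The siDDX5 libraries followed with 190, 187 and 205 CPM. The control libraries alone spanned the whole siDDX5 range, with replicate 3 high in both groups. The means were 192 ± 37.3 and 194 ± 9.62 CPM (n = 3 each, SD), with a log2 fold change of 0.02 with a standard error of 0.14 (edgeR adjusted p 0.981). The sign of this difference turned under several settings, so no direction can be given for YAP1.

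WWTR1 (ENSG00000018408.14, chr3:149517235-149736714, minus strand) encodes TAZ, the paralog of YAP. Its level was 94.9, 76.7 and 102.5 CPM in the controls and 108.3, 100.3 and 113.0 CPM in the siDDX5 libraries. Each siDDX5 library was above the control library of its own number, by 0.19, 0.39 and 0.14 on the log2 scale, while the groups overlapped because control replicate 3 exceeded siDDX5 replicate 2. The log2 fold change was 0.23 (adjusted p 0.528 by edgeR, SE 0.13, and 0.171 with the block). In TPM (transcript abundance scaled for length and depth) the means were 47.8 ± 9.37 and 49.1 ± 4.11 (SD, n = 3 each), and the log2 fold change on log2(TPM + 1) was 0.06.

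TEAD1 (ENSG00000187079.16, chr11:12674591-12944483, plus strand), the founding member of the TEAD family, had 413, 380 and 395 CPM in the 3 controls. Its siDDX5 levels were 316, 257 and 267 CPM. All siDDX5 libraries were below all control libraries, as was the case in either direction for 18% of all genes tested. The means were 396 ± 16.2 and 280 ± 31.6 CPM (SD, n = 3 each), a 1.41-fold lower level. The log2 fold change was -0.50 (SE 0.11), and the edgeR adjusted p was 0.126. With the replicate block it was -0.50 with a standard error of 0.09, and the adjusted p was 0.0276. Within the pairs of equal number the log2 difference was -0.38, -0.56 and -0.56. In the DESeq2 Wald test the adjusted p was 0.00495. With the block but without the replicate 3 pair the difference was -0.47 on the log2 scale, at an adjusted p of 0.311, so the call also rested on that pair. Without the replicate 1 or the replicate 2 pair it was 0.0121 and 0.00796.

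None of the other TEAD genes was called in either fit, and in CPM their groups overlapped. TEAD4 (ENSG00000197905.8, chr12:2959330-3040673, plus strand), the paralog best known from the trophectoderm and from myoblast differentiation, had 89.2, 75.3 and 81.3 CPM in the controls and 67.5, 82.2 and 73.7 CPM in siDDX5 libraries. Its groups overlapped in CPM but not in TPM, with 69.7 to 79.2 TPM in the controls and 65.7 to 67.8 TPM in siDDX5 libraries. The log2 fold change from counts was -0.14 (adjusted p 0.696 by edgeR, SE 0.12). It was -0.07 without control replicate 1 and -0.07 without siDDX5 replicate 1. TEAD2 (ENSG00000074219.13, chr19:49340595-49362457, minus strand), which is prominent in early embryos, had 69.7, 57.2 and 63.8 CPM in the controls and 58.8, 59.1 and 62.2 CPM in siDDX5 libraries. Its siDDX5 libraries all fell inside the control range, with a log2 fold change of -0.08 (adjusted p 0.823 by edgeR, SE 0.11). TEAD3 (ENSG00000007866.20, chr6:35473597-35497076, minus strand), known from placenta, had 28.2, 18.1 and 25.6 CPM in the controls and 24.3, 23.7 and 27.0 CPM in siDDX5 libraries. It too lay within the control range, with a log2 fold change of 0.06 (adjusted p 0.926 by edgeR, SE 0.17). The sign of TEAD3 turned by limma-trend on log2(TPM + 1), to -0.014, where the median of all genes was -0.047.

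Because TPM is scaled for length, levels of different genes can be set side by side in it. TEAD1 had the highest mean of the 10 genes in control cells, 96.5 ± 6.36 TPM (SD, n = 3), followed by YAP1 with 81.3 ± 14.7 TPM, TEAD4 with 75.1 ± 4.85 TPM and WWTR1 with 47.8 ± 9.37 TPM. AMOTL2 had 43.0 ± 2.61 TPM, TEAD2 39.2 ± 3.44 TPM, VGLL4 29.1 ± 7.39 TPM, LATS1 22.4 ± 2.41 TPM, LATS2 20.9 ± 3.10 TPM and TEAD3 10.3 ± 2.29 TPM. Neighbours in this order overlapped over the control libraries except at 2 steps, from TEAD4 to WWTR1 and from LATS2 to TEAD3. In siDDX5 cells TEAD1 had 63.0 ± 11.6 TPM (SD, n = 3), below the 76.7 ± 7.18 TPM of YAP1 and the 67.0 ± 1.10 TPM of TEAD4. The ranges of TEAD1 and YAP1 overlapped there too.

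Together the 4 TEAD genes had 233, 202 and 228 TPM in control replicates 1, 2 and 3 and 191, 162 and 181 TPM in the siDDX5 replicates, so the groups did not overlap. TEAD1 made up 43.4%, 44.2% and 43.4% of this sum in the control libraries and 39.3%, 32.0% and 34.4% in the siDDX5 libraries. The share of TEAD2 went from 17.7% ± 0.346 to 21.3% ± 0.953 and that of TEAD3 from 4.61% ± 0.717 to 5.64% ± 0.376 (SD, n = 3 each), both without overlap. The share of TEAD4 was 34.0% ± 0.526 in the controls and 37.9% ± 3.78 in the siDDX5 group (SD, n = 3 each), with overlap. These shares sum to 100% within a library, so a lower share of TEAD1 raises the others, and they were not tested.

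**Figure D2:**
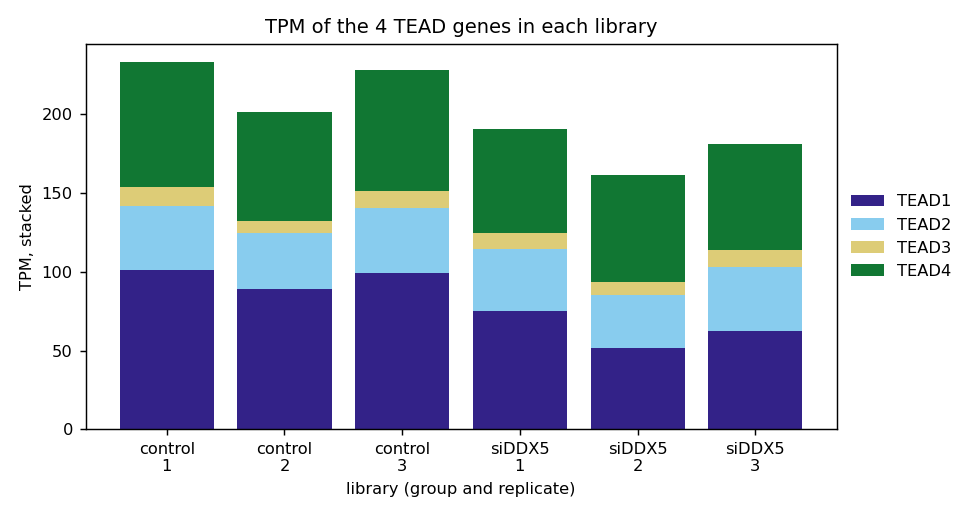
TPM of TEAD1, TEAD2, TEAD3 and TEAD4 stacked for each of the 6 libraries, on an axis from 0. The TEAD1 part is 89.2 to 101 TPM in the control libraries and 51.7 to 74.9 TPM in the siDDX5 libraries, while the TEAD4 part is 69.7 to 79.2 and 65.7 to 67.8 TPM.

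Among the regulators, LATS2 (ENSG00000150457.8, chr13:20973032-21061547, minus strand), a kinase that phosphorylates YAP and is itself a YAP target, had 66.9, 86.2 and 70.0 CPM in the controls. It had 61.2, 63.9 and 60.7 CPM in siDDX5 libraries, all below the control libraries. The log2 fold change was -0.26 (SE 0.12), and LATS2 was not called without the block (edgeR adjusted p 0.448) or with it (0.161). Control replicate 2 stood above the other controls in LATS2, and without it the log2 fold change was -0.14. LATS1 (ENSG00000131023.12, chr6:149658153-149718256, minus strand), the other kinase of the pair, had 62.1, 75.7 and 75.5 CPM in the controls and 83.7, 71.6 and 83.4 CPM in siDDX5 libraries. Its groups overlapped, with a log2 fold change of 0.16 (adjusted p 0.644 by edgeR, SE 0.12), and it was 0.08 without control replicate 1. Per 100 TPM of LATS2 there were 108, 96.2 and 119 TPM of LATS1 in the control libraries and 154, 122 and 142 TPM in the siDDX5 libraries. This ratio did not overlap between groups and was not tested.

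VGLL4 (ENSG00000144560.14, chr3:11556070-11771350, minus strand), which competes with YAP for TEAD, had 42.7, 57.5 and 64.8 CPM in the controls and 56.0, 54.6 and 76.3 CPM in siDDX5 libraries. Replicate 3 was the highest library in both groups, and the log2 fold change was 0.18 (adjusted p 0.752 by edgeR, SE 0.18). It was 0.03 without control replicate 1, 0.02 without siDDX5 replicate 3 and 0.32 without control replicate 3. AMOTL2 (ENSG00000114019.14, chr3:134355874-134375479, minus strand), an angiomotin that binds YAP, had 140, 118 and 142 CPM in the controls and 134, 148 and 143 CPM in siDDX5 libraries. The groups overlapped, with a log2 fold change of 0.09 (adjusted p 0.810 by edgeR, SE 0.11).

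Control replicate 2 was the lowest of the 3 control libraries in 7 of the 10 members (YAP1, WWTR1, AMOTL2 and the 4 TEAD genes), against 33.4% of all genes tested. It was the lowest of all 6 libraries in 5 members, against 15.4% of all genes. Control replicate 3 was the lowest control library in 0 members. Without control replicate 2 the log2 fold changes were 0.12 for WWTR1, 0.01 for AMOTL2, -0.08 for YAP1, -0.10 for TEAD3 and -0.52 for TEAD1. This count was made after the values had been seen.

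To show which genes followed the same course over the 6 libraries, log2 CPM profiles were centred on their own mean and compared by their root-mean-square difference, over the 10989 genes whose mean reached 5 CPM. The profiles nearest to YAP1 were those of IMPAD1 (0.045), CLN8 (0.053) and MRPL42 (0.057). IMPAD1 had 78.5, 67.5 and 99.3 CPM in the controls and 82.0, 81.4 and 93.0 CPM in siDDX5 libraries, with the same dip in control replicate 2. These genes were picked by this likeness out of all those compared, so a shared course follows from the choice. The profiles nearest to WWTR1 were those of ERAP1 (0.033), CHST3 (0.034) and ARFGAP3 (0.037). ERAP1 had 106.1, 81.8 and 111.3 CPM in the controls and 113.8, 106.6 and 117.8 CPM in siDDX5 libraries.

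At the level of transcripts, the lower level of TEAD1 was shared by its 2 main forms. TEAD1-203 (ENST00000526600.1) held 53.4% ± 1.77 of the TEAD1 counts in the controls and 55.1% ± 2.96 in siDDX5 cells, and TEAD1-206 (ENST00000527636.6) held 42.2% ± 2.54 and 42.1% ± 3.44 (SD, n = 3 each). Their log2 fold changes were -0.42 (SE 0.13) and -0.47 (SE 0.11), with edgeR adjusted p values of 0.601 and 0.513 among all transcripts. TEAD1-201, the form with the 12-base exon printed above, had 2.95%, 2.54% and 4.46% of the counts in the controls and 2.38%, 1.32% and 2.06% in siDDX5 libraries. Its share was lower in every siDDX5 library, with a log2 fold change of -1.23 (adjusted p 0.599 by edgeR, SE 0.36). In TPM, over the 4 transcripts that span the site, the exon was present in 19.9%, 16.3% and 27.7% in the controls and 16.5%, 9.15% and 15.5% in siDDX5 libraries, with overlap. TEAD1-203 is not among the 4, and TEAD1-205 and TEAD1-207 had 0 counts. The percentage therefore sets TEAD1-201 against TEAD1-206 and is not a share of all TEAD1. Of 45 member transcripts tested, 0 were called, as for 0.0% of all 60806 transcripts. An unadjusted p under 0.05 was reached by 11 of the 45, and by 7.11% of all. By the DESeq2 Wald test 2 of them were called, among 798 of all transcripts.

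Relative use of the transcripts was tested in 9 members, LATS2 having a single transcript tested, and 0 were called (Simes test in edgeR's diffSpliceDGE), against 1.58% of all genes. With the block 0 were called as well, against 1.2%. At an unadjusted p under 0.05 there was 1 of 9, YAP1, against 5.41% of all genes. Its adjusted p was 0.728 (0.345 with the block). For the other 8 members the adjusted p was 1.00. Reads shared between transcripts were divided by the quantifier, and the uncertainty of that division is not in these tests.

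While the total of YAP1 overlapped between groups, the shares of its main forms did not. YAP1-201 (ENST00000282441.10), which has the exon of the second WW domain and the 48-base exon but not the 12-base extension, held 41.6%, 42.7% and 43.1% of the YAP1 counts in control replicates 1, 2 and 3. It held 36.9%, 37.5% and 37.6% in the siDDX5 replicates, a gap wider than the spread within either group. YAP1-209 (ENST00000537274.5), with the extension and without the 48-base exon, held 24.96%, 29.2% and 29.2% in the controls and 36.3%, 30.1% and 37.0% in siDDX5 libraries. YAP1-202 (ENST00000345877.6), which lacks the second WW domain exon, held 12.7%, 12.4% and 10.9% in the controls and 13.9%, 23.7% and 14.7% in siDDX5 libraries. The groups did not overlap in any of the 3 forms, and siDDX5 replicate 2 stood apart from the other siDDX5 libraries in YAP1-209 and YAP1-202. Among all transcripts with at least 10% of their gene, 14.9% did not overlap. The unadjusted usage p values of these forms in diffSpliceDGE were 0.551 for YAP1-201, 0.358 for YAP1-209 and 0.172 for YAP1-202. The transcript with the smallest usage p of the gene was YAP1-210 (ENST00000615667.4), at 6.52% ± 1.02 of the counts in the controls and 1.92% ± 1.67 in the siDDX5 group (SD, n = 3 each), and with an estimated count of 5.52e-06 in siDDX5 replicate 2.

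**Figure D3:**
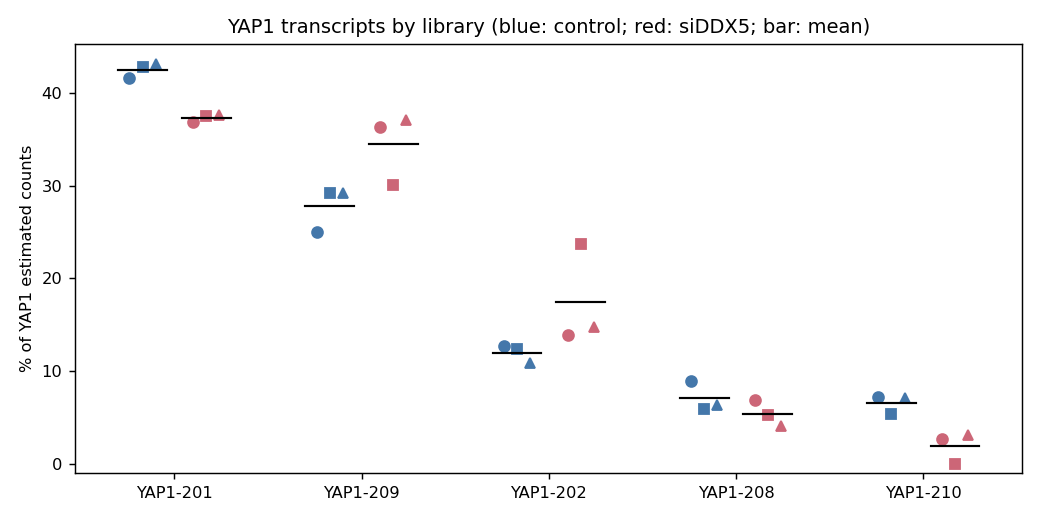
Share of the YAP1 estimated counts on 5 YAP1 transcripts, by library (circle, square and triangle for replicates 1, 2 and 3, bar for the mean). YAP1-201 lies at 41.6% to 43.1% in the controls and 36.9% to 37.6% in siDDX5 libraries, and YAP1-209 and YAP1-202 lie higher in siDDX5 libraries, while YAP1-208 overlaps.

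Summed over all annotated YAP1 transcripts that span the site, and in TPM, the 12-base extension was present in 38.4%, 42.5% and 41.9% of YAP1 in control libraries. It was present in 46.5%, 48.9% and 51.1% in siDDX5 libraries, so the groups did not overlap. The exon that encodes the second WW domain (chr11:102186018-102186131), the domain that sets the longer YAP proteins apart, was present in 86.7%, 87.4% and 88.8% in the controls and 86.0%, 77.0% and 84.5% in siDDX5 libraries. The groups did not overlap, though by a margin of under 1 percentage point. The 48-base exon was present in 54.8% ± 1.54 in the controls and 52.2% ± 4.51 in the siDDX5 group (SD, n = 3 each), with overlap. These sums were chosen after the values had been seen and were not tested.

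Over all members, 18 transcripts held at least 10% of their gene in either group, and in 10 of them the shares did not overlap between groups, 6 higher and 4 lower in siDDX5 cells. Among all 30320 such transcripts of genes with several transcripts, 14.9% did not overlap. Transcripts of one gene share its total, so these counts are not independent. TEAD3-201 held 88.6% ± 3.39 in the controls and 96.4% ± 0.434 in siDDX5 cells, LATS1-207 81.6% ± 0.469 and 88.6% ± 4.25, and WWTR1-203 92.6% ± 0.747 and 95.3% ± 0.724 (SD, n = 3 each). TEAD4-202 went the other way, from 85.7% ± 2.95 to 79.4% ± 3.18 (SD, n = 3 each), with control and siDDX5 replicate 2 both at 82.7%. This near tie is counted among the 10 without overlap. AMOTL2-202 held 25.4% ± 2.11 and 30.5% ± 1.33, while AMOTL2-201 overlapped between groups. VGLL4-211 held 94.4% ± 0.417 in the controls and 93.7% ± 2.29 in siDDX5 cells.

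TEAD2 was divided among several forms that differ by the short inserts. TEAD2-208, with the 12-base exon, held 29.7% ± 2.71 of the counts in the controls and 20.3% ± 4.97 in the siDDX5 group (SD, n = 3 each). TEAD2-204, which has the same 12-base exon, held 3.34%, 0.039% and 3.10% in the controls and 16.7% and 18.3% in siDDX5 replicates 1 and 2, and was listed at 0 in siDDX5 replicate 3. Summed in TPM over the transcripts that span the site, the 12-base exon was present in 33.1% ± 1.92 of TEAD2 in the controls and 33.9% ± 4.86 in the siDDX5 group (SD, n = 3 each). The inclusion of the exon overlapped between groups, as did the share of TEAD2-204, while that of TEAD2-208 did not. TEAD2-202, which has a 9-base extension of another exon (chr19:49355303-49355311), held 23.0% ± 3.74 and 15.7% ± 0.265 of the counts (SD, n = 3 each). Other TEAD2 transcripts also hold this extension. Summed in TPM over the transcripts that span its site, it was present in 27.1% ± 5.58 of TEAD2 in the controls. In the siDDX5 group it was present in 23.9% ± 7.05 (SD, n = 3 each), with overlap.

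The rest of the pathway was read from 3 lists. Of all genes tested, 0.171% were called without the block and 2.48% with it. The first held 41 genes of the kinase cassette and its upstream regulators. All 41 were tested and 0 were called without or with the block, with 2 at an unadjusted p under 0.05 (4.88%, against 11.3% of all genes) and a median log2 fold change of -0.07. The MST kinases lay close to 0, STK3 at 0.04 (27.8 ± 0.50 CPM in control, 28.5 ± 2.31 CPM in siDDX5 cells) and STK4 at 0.10 (85.1 ± 2.67 and 91.0 ± 5.75 CPM; SD, n = 3 each). Their adaptor SAV1 had a log2 fold change of -0.17 (SE 0.13), the LATS cofactors MOB1A and MOB1B 0.13 (SE 0.11) and 0.12 (SE 0.13), and NF2, the membrane-linked activator of the cascade, -0.07 (SE 0.11). The edgeR adjusted p values of these 6 genes ran from 0.651 for SAV1 to 0.934 for STK3. The signs of STK3, STK4 and MOB1B turned in the TPM scale. By limma-trend on log2(TPM + 1) the median of all genes was itself -0.047. STK3 (-0.036) and MOB1B (-0.012) lay above that median and STK4 (-0.12) below it.

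The second list held 26 cofactors and binding partners of YAP, TAZ and TEAD, of which 25 were tested. The 1 called was BTRC, the F-box subunit of a ubiquitin ligase that binds phosphorylated YAP as well as beta-catenin. BTRC was also the 1 called with the block. Among all genes tested, 0.171% were called without the block and 2.48% with it. BTRC had 58.7, 59.7 and 59.6 CPM in the controls and 37.3, 30.8 and 37.4 CPM in siDDX5 libraries. The groups were far apart, with a log2 fold change of -0.75 (adjusted p 0.0426 by edgeR, SE 0.11, and 0.00967 with the block). BTRC lost the call in all 6 fits that left out 1 library, with log2 fold changes from -0.80 to -0.67. In this list 7 genes had an unadjusted p under 0.05 (28.0%, against 11.3% of all genes), 1 of them with a positive and 6 with a negative difference, and the median was -0.01. AMOTL1, an angiomotin like AMOTL2, had 254 ± 6.55 CPM in the controls and 208 ± 28.8 CPM in the siDDX5 group (n = 3 each, SD), with a log2 fold change of -0.29 (adjusted p 0.398 by edgeR, SE 0.12). With the block it was not called (0.146), but it was without the replicate 1 pair (0.0262). AMOT, the X-linked founder of that family, differed by 0.03 (adjusted p 0.976 by edgeR, SE 0.22), with a sign that turned in the TPM scale.

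The third list was a signature of 22 YAP and TAZ target genes written from memory of the literature, of which 20 were tested and 2, LATS2 and AMOTL2, are members. Without the block 0 of 20 were called in edgeR with the filter. With the block 2 were called, 1 higher and 1 lower, where 2.48% of all genes tested were called. The 3 genes at an unadjusted p under 0.05 are 15% of those tested, against 11.3% of all genes, and the median was 0.06. PTPN14 is among these 3 and is also in the first list, where it is counted too. NUAK2, a kinase of the AMPK family, had 8.89, 8.96 and 10.8 CPM in the controls and 14.3, 17.3 and 17.7 CPM in siDDX5 libraries. All siDDX5 libraries were above all controls, with a log2 fold change of 0.78 (adjusted p 0.0801 by edgeR, SE 0.15, and 0.0145 with the block). NUAK2 was also called without the block by the DESeq2 Wald test (adjusted p 0.00115) and by edgeR with no filter (0.0428), and in none of the 6 fits that left out 1 library (0.121 to 0.327). RBMS3, which encodes an RNA-binding protein, had 42.1, 35.6 and 31.7 CPM in the controls and 31.5, 25.5 and 22.1 CPM in siDDX5 libraries. Its log2 fold change was -0.47 (adjusted p 0.318 by edgeR, SE 0.16, and 0.0398 with the block). The call of RBMS3 was lost with the block without the replicate 3 pair (0.294). These genes moved in opposite directions.

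The target genes in widest use as readouts of YAP were not called. CCN1 (also named CYR61), a secreted matrix protein, had 501, 258 and 304 CPM in the controls and 477, 486 and 427 CPM in siDDX5 libraries. Control replicate 1 was above every siDDX5 library and the other controls were below all of them. The log2 fold change of CCN1 was 0.39 (adjusted p 0.534 by edgeR, SE 0.21), and it was 0.73 without control replicate 1 and 0.21 without control replicate 2. With the block and without the replicate 1 pair CCN1 was called (log2 fold change 0.70, adjusted p 0.0138), and without the replicate 2 pair it was not (0.21, adjusted p 0.396). CCN2 (also named CTGF), a related matrix protein, had 20.6 ± 2.64 CPM in the controls and 25.2 ± 2.73 CPM in the siDDX5 group (n = 3 each, SD), with a log2 fold change of 0.29 (adjusted p 0.482 by edgeR, SE 0.14). ANKRD1, a nuclear ankyrin-repeat protein of muscle, had 109 ± 20.7 and 119 ± 6.06 CPM, and the receptor kinase AXL had 518 ± 56.1 and 588 ± 78.7 CPM (SD, n = 3 each). Their log2 fold changes were 0.12 (SE 0.14) and 0.18 (SE 0.13), with edgeR adjusted p values of 0.791 and 0.637. Without siDDX5 replicate 2 the value of AXL was 0.07.

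**Figure D4:**
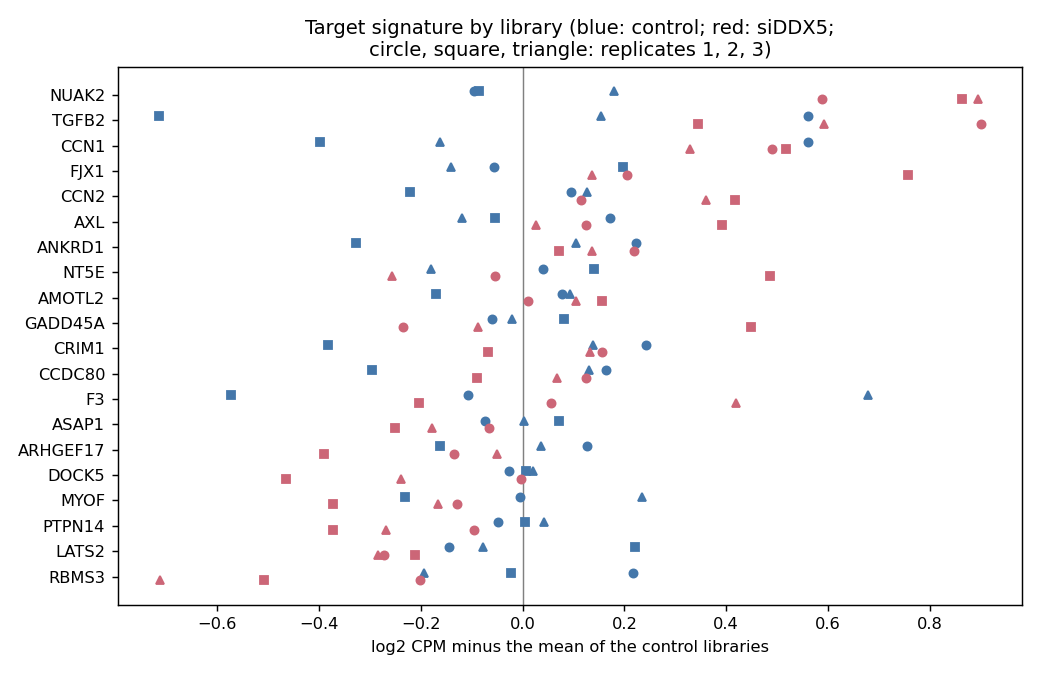
log2 CPM of the 20 tested genes of the target signature in each library, minus the mean of the 3 control libraries (horizontal axis), ordered by fold change. The siDDX5 libraries of NUAK2 lie above all controls and those of RBMS3, LATS2 and PTPN14 below, in RBMS3 only by 31.5 against 31.7 CPM. Genes without overlap are 20% of the 20, close to the 18% of all genes tested. Control replicate 2 (blue squares) is the lowest control in 10 of the 20 genes, against 33.4% of all genes.

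**Figure D5:**
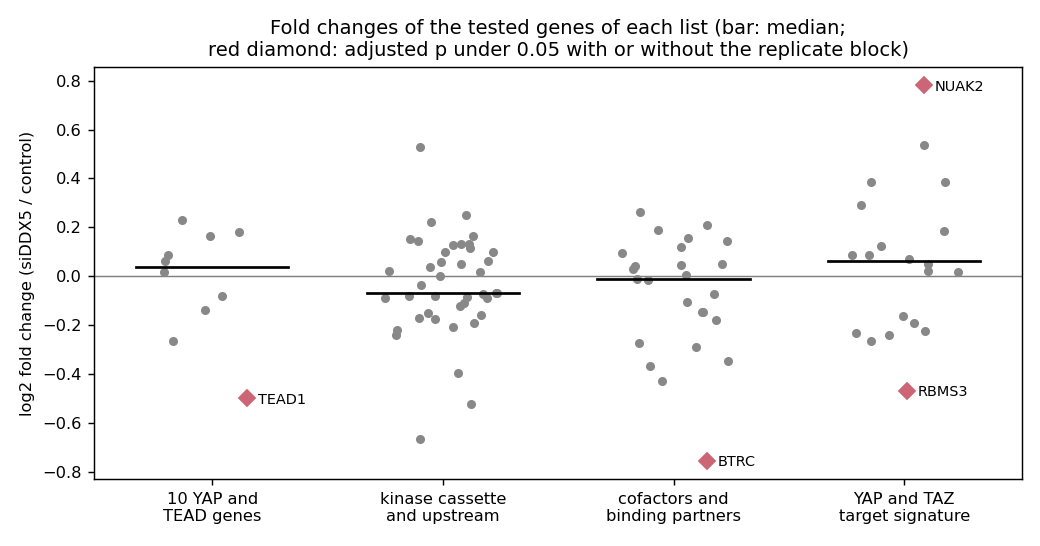
log2 fold change of siDDX5 against control for the tested genes of the 10 members and the 3 pathway lists, with each list's median as a bar. The medians lie between -0.07 and 0.06, and TEAD1, BTRC, NUAK2 and RBMS3 are the genes with an adjusted p under 0.05 in either fit (BTRC in both, the other 3 with the block).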

How the data were processed

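One table per library was deposited, with estimated counts, TPM, length and effective length per transcript. The submitters' processing notes name bcl2fastq 2.20, FastQC 0.11.8, cutadapt 1.11, kallisto 0.46.0 and GRCh38. Estimated counts are as deposited, not normalized, and the TPM values had been scaled for effective length by the authors' quantifier, per the file headers. The annotation release is not given in the sources used here. Lengths and effective lengths are bases, per the file headers.

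Of 188753 transcripts, 169797 were joined to GENCODE release 29 by identifier and 15291 by symbol, which took in 99.26% to 99.32% of counts. Counts were summed per gene, rounded, filtered (filterByExpr), TMM-scaled and tested by edgeR 4.0.16 quasi-likelihood (R 4.3.3) with group as the only term. Calls are at a Benjamini-Hochberg adjusted p under 0.05. Standard errors are the log2 fold change over the square root of F. Alternatives used DESeq2 1.42.0 and limma 3.58.1. Nothing states that libraries came from separate cultures beyond the word biological, so p-values measure the spread between these libraries.

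Equal replicate numbers deviated together (correlations over 15204 genes of 0.21, 0.27 and 0.56 for numbers 1, 2 and 3), so the fit with the number as a block is given where it changes a call. In simulated data with 200 genes changed by 1 on the log2 scale, edgeR recovered 86.5% with 15 false calls among 15001 genes. When effects shared by equal replicate numbers were simulated too, the fit without the block recovered 35% and the fit with it 84%, with 1 and 6 false calls among 14979 genes. These effects were built in at a set size, so the gain from the block does not show that these libraries were paired. The simulated scatter was taken from a fit without the block, so it already held any replicate effects of these libraries. The added effects came on top, so the recoveries with and without the block do not give those of the fits used here. Changed genes were drawn from those above a mean of 5 CPM. The members' log2 fold changes ran from -0.50 to 0.23, and recovery of changes that small was not simulated.

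The members, lists and tests were chosen with earlier results of these data known. Named genes were the members, DDX5, 12 fixed pathway genes, any listed gene called in either fit, 3 nearest profiles each for YAP1 and WWTR1, and transcripts at 10% of a member or more. Other transcripts were named after their values were seen.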

Additional observations from a re-analysis of the deposited data

How the results depend on the processing

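TEAD1 kept its negative sign under all 18 alternatives (log2 fold change from -0.63 to -0.44). It passed the threshold in the DESeq2 Wald test, with the replicate block, and with the block without the replicate 1 or replicate 2 pair. It did not pass with the block without the replicate 3 pair, nor in any of the 6 fits without 1 library (adjusted p from 0.141 to 0.421). The number of members changed, 0 as reported, was therefore 1 with the DESeq2 Wald test and with the replicate block, and 0 to 1 with the block without 1 pair. The fits without 1 pair were added after the data had been seen.

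Over all genes, 26 were called as reported, 327 by the Wald test of DESeq2, 129 when no filter was used, 2 from length-scaled TPM counts, 1 by limma-trend with either pseudocount (1 or 0.1 TPM), 377 with the replicate block, 0 to 16 without 1 library (1242 to 2036 at an unadjusted p under 0.05), and 1017, 1226 and 215 with the block without the replicate 1, 2 and 3 pair. Both fits that called 0 were without a replicate 1 library. Transcripts changed, 0 as reported, were 798 by the DESeq2 Wald test and 8 and 2 by limma-trend with the larger and the smaller pseudocount. Member transcripts changed were 2 by the DESeq2 Wald test. Genes with changed transcript usage, 169 as reported, were 396 with no filter, 41 with a mean of at least 50 counts and 223 to 445 without 1 library. The replicate block, which gave 128, moved none of these usage calls among the members.

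Signs turned for genes near 0. With length-scaled TPM counts the log2 fold change was -0.037 for YAP1, -0.064 for STK4 and -0.093 for AMOT. By limma-trend with pseudocounts of 1 and 0.1 TPM it was -0.074 and -0.074 for YAP1, -0.014 and -0.013 for TEAD3, -0.036 and -0.037 for STK3, -0.12 and -0.13 for STK4, -0.012 and -0.014 for MOB1B, and -0.091 and -0.10 for AMOT. The medians over all genes in these fits were -0.047 and -0.054, against -0.0017 as reported. TEAD3, STK3 and MOB1B lay above these medians, and YAP1, STK4 and AMOT below. Without 1 library the ranges were -0.081 to 0.19 for YAP1, -0.10 to 0.20 for TEAD3, -0.020 to 0.10 for STK3, -0.018 to 0.20 for MOB1B, -0.16 to 0.20 for AMOT and -0.017 to 0.24 for ANKRD1. With the block without 1 pair they were -0.046 to 0.15 for YAP1 (-0.0041 without pair 1), -0.14 to 0.0068 for TEAD2, -0.069 to 0.23 for TEAD3, -0.027 to 0.17 for AMOTL2, -0.032 to 0.11 for STK3 and -0.052 to 0.20 for MOB1B. Signs held without 1 library, but sizes moved by over 1.5 times, for TEAD2 (-0.15 to -0.0050), TEAD4 (-0.22 to -0.067), LATS1 (0.079 to 0.23), LATS2 (-0.33 to -0.14), VGLL4 (0.018 to 0.32), SAV1 (-0.26 to -0.080), MOB1A (0.080 to 0.19), NF2 (-0.14 to -0.0022) and AXL (0.071 to 0.28). The same held for WWTR1 (0.12 to 0.32), AMOTL2 (0.012 to 0.13), STK4 (0.055 to 0.14) and CCN1 (0.21 to 0.73). With the block without the replicate 1 pair TEAD4 was at -0.0074 and LATS1 at 0.033, and without the replicate 2 pair AXL was at 0.048. The cause was not tested. BTRC lost its call in 9 of 18 alternatives. The replicate block changed no call among the named genes other than those of TEAD1, NUAK2 and RBMS3.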

Other observations

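Among the rarer transcripts of the members, chosen after their values were seen, TEAD3-203 (ENST00000639578.2) held 8.53%, 8.20% and 11.1% of the TEAD3 counts in control replicates 1, 2 and 3 and 4.09%, 3.24% and 3.52% in the siDDX5 replicates, with an edgeR adjusted p of 0.577 among all transcripts. TEAD4-201 (ENST00000358409.6) held 3.90%, 4.94% and 6.86% of the TEAD4 counts in control and 9.48%, 9.28% and 9.38% in siDDX5 libraries, with an edgeR adjusted p of 0.650. Both sets of shares were without overlap, and neither transcript was called.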
